A study of Homo sapiens with 8 samples.

Results

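The level of 40 genes of the integrated stress response and the unfolded protein response was followed in 8 RNA-seq libraries of breast epithelial cell lines with and without added *MALINC1*, a long non-coding RNA. The genes were chosen by symbol from what is known of these pathways, with earlier results of these data in view, and all 40 were among the 13842 genes of the deposited table. They fell into 4 groups by role. A first group of 6 held the sensors and transcription factors *EIF2AK3*, *EIF2AK4*, *ERN1*, *ATF6*, *ATF4* and *XBP1*. The amino acid arm of *ATF4* was represented by 8 enzymes of serine, glycine, one-carbon, asparagine and proline synthesis, and 8 further genes were other effectors of *ATF4*. The largest group held 18 chaperones, folding enzymes and degradation factors of the endoplasmic reticulum (ER), the arm commonly placed under *XBP1* and *ATF6*.

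Cells sense a shortage of amino acids through the kinase GCN2 (*EIF2AK4*) and an excess of unfolded protein in the ER through the kinase PERK (*EIF2AK3*). Both phosphorylate the initiation factor eIF2 alpha, which lowers protein synthesis as a whole but favours translation of the transcription factor ATF4, and ATF4 then raises genes of amino acid synthesis and import together with regulators such as *DDIT3* and *TRIB3*. The remaining ER sensors act by other routes: IRE1 (*ERN1*) splices the *XBP1* transcript, ATF6 is cut in the Golgi, and both routes raise chaperones and the machinery of ER-associated degradation (ERAD). Much of this control acts on translation, phosphorylation and splicing, none of which was measured in these libraries.

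MCF10A is an immortalized, non-tumorigenic human breast epithelial line, and DCIS.COM is a related line that serves as a model of ductal carcinoma in situ (DCIS). Each line was stably transduced with the lentiviral vector pLOC-empty or with pLOC-*MALINC1* and selected with blasticidin, so that all 4 groups carried a vector and had gone through selection. Every group had 2 libraries. MCF10A was grown with horse serum, epidermal growth factor, hydrocortisone, insulin and cholera toxin and DCIS.COM with horse serum, so that line and medium cannot be told apart. The labels do not say whether the libraries of a group came from separate cultures, and the p-values measure the spread between these libraries only, which may be technical. How many transductions were made for each line and vector is not given in the sources used here. Differences between transduced pools therefore cannot be told apart from those due to *MALINC1*. *MALINC1* itself had 1.07 and 1.58 CPM (reads on genes, scaled to library size by the authors) in the pLOC-empty libraries of MCF10A and 13.3 and 11.8 CPM in those with pLOC-*MALINC1*, and 1.42 and 1.22 against 24.5 and 19.2 CPM in DCIS.COM. Each library had between 20604377 and 37550457 reads on genes. All 10 markers of basal mammary epithelium were in the table. Their summed level was 30387 to 30463 CPM with pLOC-empty and 39785 to 41107 CPM with pLOC-*MALINC1* in MCF10A, and 6754 to 6892 against 7409 to 7617 CPM in DCIS.COM. Of fibroblast, leukocyte and endothelial markers, only *COL1A1*, *CD14*, *CD68* and *PECAM1* were listed, at no more than 15.9 CPM in any library, and *PTPRC*, *LUM* and *VWF* were not among the listed genes. *COL1A1* had 15.2 to 15.9 CPM with pLOC-empty and 6.68 to 7.45 CPM with pLOC-*MALINC1* in MCF10A, and 1.98 to 2.08 against 1.58 to 1.67 CPM in DCIS.COM. *PECAM1* had 1.05 to 1.11 against 0.751 to 0.879 CPM in MCF10A and 6.13 to 7.28 against 0.159 to 0.249 CPM in DCIS.COM. The sum of *CD14* and *CD68* was 14.2 to 14.4 against 13.1 to 13.9 CPM in MCF10A and 4.25 to 4.34 against 8.03 to 8.27 CPM in DCIS.COM. The part that these markers had in the results was not tested. In bulk RNA, fewer cells that express a gene and less of its RNA per cell cannot be told apart.

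Promoter sequences of 36 of the 40 genes were found in RefSeq (GRCh38.p14), from 250 bases before to 50 bases after each transcription start, in 35116 windows of 27305 genes. Both strands were searched for the letters of elements known from these pathways. The C/EBP-ATF response element TGATGNAA, to which ATF4 binds with a C/EBP partner, was found in the windows of *ASNS*, *CEBPG*, *CHAC1* and *HERPUD1*, and in those of 4.46% of all genes (3.62% of windows). The ER stress response element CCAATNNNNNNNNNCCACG, known to bind NF-Y and ATF6, was found in *CALR*, *CANX*, *CRELD2*, *HSP90B1*, *HSPA5*, *PDIA6* and *XBP1*, and in 0.0916% of all genes (0.0769% of windows). Its second form, ATTGG and CCACG with any 1 base between them, was found in *HERPUD1*, *HYOU1* and *SDF2L1*, against 0.0696% of all genes (0.0541% of windows). The unfolded protein response element TGACGTGG, a site of XBP1, was found in *ALDH18A1* and *HYOU1*, where the match of *HYOU1* overlaps one of its matches to that second form, and in 0.927% of all genes (0.729% of windows). A match shows only that these letters are present, and a window without one may hold other forms of the element. The 250 bases before the start of 6 genes are shown 5′ to 3′, each on the strand of its gene, with the matches in capitals. *HSPA5* and *CALR* hold the same element and moved in opposite directions in MCF10A, *XBP1* is a factor of the chaperone arm that holds it too, *HYOU1* holds the other forms, and *ASNS* and *CEBPG* hold the C/EBP-ATF element. These 6 were picked after the matches were seen.
HSPA5, chr9:125241344-125241593, minus strand: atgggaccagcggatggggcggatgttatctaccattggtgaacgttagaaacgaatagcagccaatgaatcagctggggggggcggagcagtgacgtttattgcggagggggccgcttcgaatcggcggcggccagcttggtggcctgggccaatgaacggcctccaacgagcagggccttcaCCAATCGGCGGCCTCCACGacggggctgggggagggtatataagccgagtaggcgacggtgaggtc
CALR, chr19:12938359-12938608, plus strand: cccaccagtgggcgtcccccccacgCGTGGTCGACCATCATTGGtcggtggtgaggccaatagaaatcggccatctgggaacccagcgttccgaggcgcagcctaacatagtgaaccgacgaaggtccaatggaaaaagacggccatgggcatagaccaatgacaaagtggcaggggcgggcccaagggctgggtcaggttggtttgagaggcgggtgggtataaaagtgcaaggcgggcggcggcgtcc
XBP1, chr22:28800570-28800819, minus strand: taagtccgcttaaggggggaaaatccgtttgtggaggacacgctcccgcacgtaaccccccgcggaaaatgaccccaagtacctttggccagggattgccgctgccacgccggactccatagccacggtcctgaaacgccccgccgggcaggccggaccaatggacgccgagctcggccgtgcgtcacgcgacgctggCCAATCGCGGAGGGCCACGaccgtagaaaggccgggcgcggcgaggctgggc
HYOU1, chr11:119057206-119057455, minus strand: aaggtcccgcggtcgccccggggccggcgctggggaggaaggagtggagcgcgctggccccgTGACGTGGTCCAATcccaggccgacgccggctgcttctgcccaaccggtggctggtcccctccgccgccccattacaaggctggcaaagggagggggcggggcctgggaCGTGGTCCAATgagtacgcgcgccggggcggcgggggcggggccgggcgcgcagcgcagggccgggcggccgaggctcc
ASNS, chr7:97872409-97872658, minus strand: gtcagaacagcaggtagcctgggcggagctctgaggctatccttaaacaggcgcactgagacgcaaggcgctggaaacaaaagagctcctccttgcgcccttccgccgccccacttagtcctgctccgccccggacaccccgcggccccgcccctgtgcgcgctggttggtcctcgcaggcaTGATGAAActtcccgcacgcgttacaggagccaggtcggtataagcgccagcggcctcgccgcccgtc
CEBPG, chr19:33373863-33374112, plus strand: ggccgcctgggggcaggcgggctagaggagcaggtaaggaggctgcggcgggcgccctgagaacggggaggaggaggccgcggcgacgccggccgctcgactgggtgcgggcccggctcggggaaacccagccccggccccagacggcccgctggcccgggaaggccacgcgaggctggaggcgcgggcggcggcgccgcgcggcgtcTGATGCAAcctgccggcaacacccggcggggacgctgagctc

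In MCF10A, the genes moved mostly upward with *MALINC1*. Log2 fold changes, always pLOC-*MALINC1* over pLOC-empty, were estimated by limma from the deposited log2 CPM of all 13842 genes, and a gene was called when its Benjamini-Hochberg adjusted p was below 0.01. By this rule 20 of the 40 genes were higher and 4 were lower with pLOC-*MALINC1*, beside 21.5% and 18.1% of all tested genes and 39.6% for both directions together. The falls were those of *ATF4*, *CEBPB*, *CALR* and *SEL1L*. The changes were small. A change over 2-fold was reached by *TRIB3* alone, against 5.50% of all tested genes. The median log2 fold change was 0.26 over the 40 genes and 0.0 over all tested genes. The 2 libraries of each group did not overlap for 35 of the genes, beside 76.5% of all tested genes.

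In DCIS.COM the direction was mixed. With pLOC-*MALINC1*, 6 of the 40 genes were higher (*XBP1*, *ALDH18A1*, *PYCR1*, *HSP90B1*, *MANF* and *HYOU1*) and 10 were lower, beside 16.4% and 16.7% of all tested genes and 33.2% for both directions. None passed the 2-fold threshold, against 4.53% of all tested genes, and the count was 0 as well at an unadjusted p below 0.05 and with limma's voom on recovered reads. The median log2 fold change was -0.0042 over the 40 genes and 0.01 over all tested genes. The libraries with and without *MALINC1* did not overlap for 30 of the genes, against 73.1% of all tested genes. The split between rises and falls in this line depended on the scaling. It was 9 higher and 8 lower when reads of *RN7SL1* and *RN7SL2* were left out of the totals, and 14 higher and 8 lower with voom on plain read totals, a setting added after the data had been seen. Over all tested genes, 19.8% were higher and 14.5% lower with the former scaling, and 29.2% and 10.8% with the latter, which moved the median log2 fold change of all genes by 0.12. In DCIS.COM, *RN7SL1* and *RN7SL2*, abundant RNAs of the signal recognition particle, took 14.0% to 15.7% of the reads with pLOC-empty and 8.22% to 11.5% with pLOC-*MALINC1*. In MCF10A they took 12.3% to 13.2% and 10.4% to 11.7%.

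**Figure D1:**
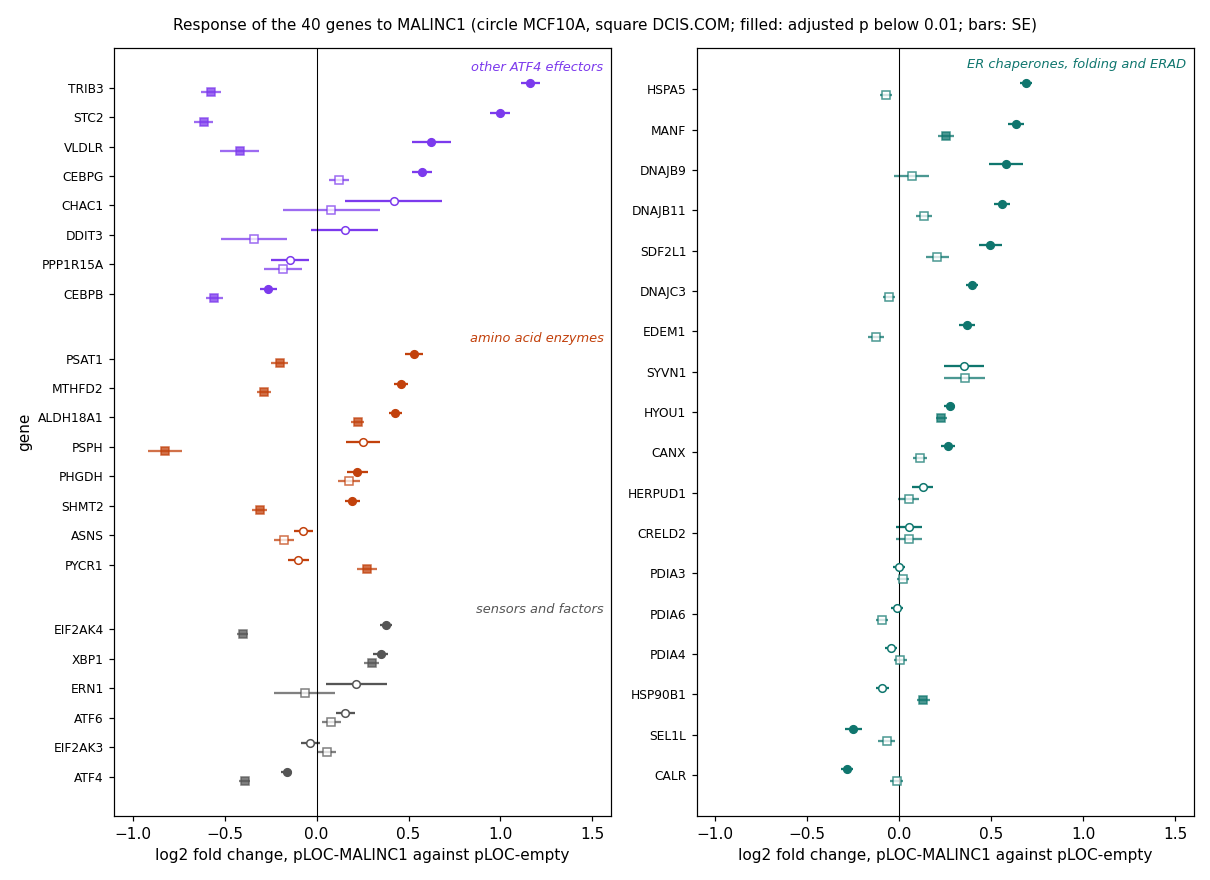
Log2 fold change, pLOC-*MALINC1* over pLOC-empty, for each of the 40 genes, in MCF10A (circles) and DCIS.COM (squares), with limma's standard error as bars and filled symbols for an adjusted p below 0.01. In MCF10A the values run from -0.28 (*CALR*) to 1.16 (*TRIB3*), and *TRIB3*, *STC2*, *VLDLR*, *PSAT1*, *MTHFD2*, *SHMT2* and *EIF2AK4* have filled symbols on opposite sides of 0.

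Of the 40 genes, 7 rose with pLOC-*MALINC1* in MCF10A but fell in DCIS.COM, namely *EIF2AK4*, *TRIB3*, *STC2*, *VLDLR*, *PSAT1*, *SHMT2* and *MTHFD2*, beside 4.20% of all tested genes, or 7.81% with opposite calls of either kind. Of these 7, the calls of *VLDLR* and *PSAT1* in DCIS.COM and of *SHMT2* in MCF10A were lost without some single libraries, as given below. Another 4 (*XBP1*, *ALDH18A1*, *MANF* and *HYOU1*) were higher in both lines, beside 5.42%, and *ATF4* and *CEBPB* were lower in both, so that 6 had the same direction, against 9.39%. Calls of the reverse kind, a fall in MCF10A with a rise in DCIS.COM, were absent. Among all tested genes such calls were less frequent than the 4.20% of the first kind, so that their absence from 40 genes says little. Neither line gave a call for *ATF6*, *ERN1*, *EIF2AK3*, *DDIT3*, *CHAC1*, *ASNS*, *PPP1R15A*, *HERPUD1*, *PDIA3*, *PDIA4*, *PDIA6*, *SYVN1* and *CRELD2*. When the difference between the responses was itself tested, 18 of the 40 genes had a lower response in DCIS.COM than in MCF10A and 3 a higher one, against 20.3% and 15.6% of all tested genes, or 35.9% for both. The difference exceeded 2-fold for *TRIB3*, *STC2*, *PSPH* and *VLDLR*, beside 9.20% of all tested genes.

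Among the sensors and factors, *ATF4* fell in both lines. It encodes the transcription factor at the centre of the integrated stress response and lies at chr22:39915700-39918688 (GRCh37, plus strand). In MCF10A it had 297 and 291 CPM in the pLOC-empty libraries and 262 and 263 CPM in those with pLOC-*MALINC1*. In DCIS.COM the values were 357 and 352 CPM in the pLOC-empty libraries and 269 and 271 CPM in those with pLOC-*MALINC1*. In both lines the pLOC-*MALINC1* libraries lay below the pLOC-empty libraries without overlap. The log2 fold change was -0.16 (SE 0.03, adjusted p = 0.000646) in MCF10A and -0.39 (SE 0.03, adjusted p = 5.30e-07) in DCIS.COM, where the level was 1.31-fold lower with pLOC-*MALINC1*. The fall differed between the lines by -0.23 (SE 0.042, adjusted p = 0.00071), and this difference was lost with limma without a trend and with voom on plain read totals, as was the MCF10A call without a trend (adjusted p = 0.016). The annotation lists 4 pseudogenes of *ATF4*, and how reads with several matches were counted is not given in the sources used here.

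*XBP1*, the factor of the IRE1 route, rose in both lines. It lies at chr22:29190543-29196585 (GRCh37, minus strand), and its promoter is the third of those shown. It had 85.4 and 84.0 CPM in the pLOC-empty libraries and 108 and 107 CPM in those with pLOC-*MALINC1* in MCF10A. DCIS.COM had 56.1 and 57.4 CPM in the pLOC-empty libraries and 67.4 and 72.4 CPM in those with pLOC-*MALINC1*. The groups did not overlap in either line, and DCIS.COM stayed below MCF10A with each vector. The log2 fold changes were 0.35 (SE 0.042, adjusted p = 2.16e-05) and 0.30 (SE 0.042, adjusted p = 9.17e-05), and their difference of -0.05 (SE 0.059) had an adjusted p of 0.521. The deposited gene level sums the spliced and the unspliced form of the transcript.

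*EIF2AK4*, which encodes the amino acid sensor GCN2, had the largest change of this group in each line, and the changes had opposite signs. Its mean level rose from 81.3 ± 0.357 to 106 ± 0.135 CPM (SD, n = 2) in MCF10A, a log2 fold change of 0.38 (SE 0.032, adjusted p = 1.08e-06). In DCIS.COM it fell from 154 ± 0.562 to 116 ± 0.516 CPM, which is a log2 fold change of -0.40 (SE 0.032, adjusted p = 7.98e-07). After these changes the pLOC-*MALINC1* libraries of the lines were close to each other, at 105.6 and 105.8 CPM in MCF10A and 116.6 and 115.9 CPM in DCIS.COM. *EIF2AK3*, which encodes PERK, had -0.03 (adjusted p = 0.596) on the log2 scale in MCF10A and 0.06 (adjusted p = 0.406) in DCIS.COM, the smallest of the group. *ATF6* had 0.16 (adjusted p = 0.0259) and 0.08 (adjusted p = 0.241), and *ERN1*, at only 2.51 ± 0.312 CPM with pLOC-empty in MCF10A, had 0.22 (adjusted p = 0.294) and -0.06 (adjusted p = 0.782).

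Of the 8 amino acid enzymes, 5 rose and none fell in MCF10A, while 2 rose and 4 fell in DCIS.COM. These are to be read beside 21.5% and 18.1% of all tested genes in MCF10A and 16.4% and 16.7% in DCIS.COM. No fall in MCF10A was called by voom either, and at an unadjusted p below 0.05 there were 6 positive and 0 negative values. The median log2 fold change was 0.24 in MCF10A and -0.19 in DCIS.COM. The serine pathway moved in part. *PSAT1*, the aminotransferase of its second step, rose from 38.8 ± 0.285 to 56.0 ± 1.84 CPM in MCF10A, a log2 fold change of 0.53 (SE 0.048, adjusted p = 1.89e-06). In DCIS.COM it went from 81.6 ± 2.66 to 71.0 ± 3.81 CPM, which is a log2 fold change of -0.20 (SE 0.048, adjusted p = 0.00433). That call was lost without either pLOC-empty library or without pLOC-*MALINC1* replicate 1 of DCIS.COM, where the log2 fold change was -0.23 to -0.15 and the adjusted p 0.0113 to 0.0571. It was lost as well with 4 other settings, and voom on plain read totals gave -0.085 (adjusted p = 0.189). *PSAT1* has 4 annotated pseudogenes. *PHGDH*, the first enzyme of the pathway, had 0.22 (adjusted p = 0.00673) in MCF10A and 0.18 (adjusted p = 0.026) in DCIS.COM. Its call in MCF10A was lost without pLOC-empty replicate 2 or either pLOC-*MALINC1* library of that line, and without either pLOC-*MALINC1* library of DCIS.COM. Quantile normalization, leaving out *RN7SL1* and *RN7SL2*, limma without a trend, voom on plain read totals and MCF10A fitted alone ended it as well.

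*PSPH*, the phosphatase of the last step of serine synthesis, fell most among the enzymes in DCIS.COM. It had there 40.8 and 39.4 CPM in the pLOC-empty libraries and 23.4 and 21.9 CPM in those with pLOC-*MALINC1*. In MCF10A it had 13.1 and 15.4 CPM in the pLOC-empty libraries and 15.6 and 18.4 CPM in those with pLOC-*MALINC1*. The groups were well apart in DCIS.COM, while in MCF10A the lower pLOC-*MALINC1* library exceeded the higher pLOC-empty library by little. The log2 fold change was -0.82 (SE 0.092, adjusted p = 1.52e-05) in DCIS.COM, a 1.77-fold lower level, and 0.25 (SE 0.092, adjusted p = 0.035) in MCF10A. The latter was 0.14 without pLOC-empty replicate 1, 0.13 without pLOC-*MALINC1* replicate 2 and 0.37 without either of the other MCF10A libraries. The responses differed by -1.08 (SE 0.13, adjusted p = 2.68e-05). *PSPH* lies at chr7:56078744-56119297 (GRCh37, minus strand) and has an annotated pseudogene, *PSPHP1*, with which reads may be shared.

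The mitochondrial one-carbon enzymes *SHMT2* and *MTHFD2* rose in MCF10A and fell in DCIS.COM. *MTHFD2* went from 95.3 ± 0.241 to 131 ± 5.59 CPM in MCF10A (log2 fold change 0.46, adjusted p = 7.01e-07), and from 228 ± 1.02 to 187 ± 4.76 CPM in DCIS.COM (-0.29, adjusted p = 4.85e-05). The annotation lists 7 pseudogenes of *MTHFD2*, with which reads may be shared. For *SHMT2* the values were 0.19 (adjusted p = 0.00148) and -0.31 (adjusted p = 5.23e-05). The first call was lost without either pLOC-empty library or pLOC-*MALINC1* replicate 2 of MCF10A, without a trend and with MCF10A fitted alone. The proline enzyme *ALDH18A1* rose in both lines, with 0.43 (adjusted p = 9.38e-07) and 0.22 (adjusted p = 0.00026), the latter lost without a trend (adjusted p = 0.0103). *PYCR1*, which completes proline synthesis, had -0.10 (adjusted p = 0.157) in MCF10A and 0.27 (adjusted p = 0.00163) in DCIS.COM. The latter call was lost without pLOC-empty replicate 2 or either pLOC-*MALINC1* library of DCIS.COM, without a trend and with DCIS.COM fitted alone.

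*ASNS*, asparagine synthetase and a classical target of ATF4, was not called in either line. It lies at chr7:97480989-97501854 (GRCh37, minus strand), and its promoter holds the C/EBP-ATF element shown. Its level in MCF10A was 17.0 and 17.3 CPM in the pLOC-empty libraries and 16.0 and 16.7 CPM in those with pLOC-*MALINC1*. In DCIS.COM it was 46.7 and 47.0 CPM in the pLOC-empty libraries and 41.7 and 41.2 CPM in those with pLOC-*MALINC1*. The pLOC-*MALINC1* libraries were the lower ones in both lines, without overlap, but close to the others. The log2 fold changes were -0.07 (SE 0.053, adjusted p = 0.275) and -0.18 (SE 0.053, adjusted p = 0.0161), the second of which passed with voom on recovered reads (-0.18, adjusted p = 0.00421). The annotation lists 4 pseudogenes of *ASNS*.

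The other effectors of *ATF4* held the 2 largest changes of the 40 genes in MCF10A, those of *TRIB3* and *STC2*. In MCF10A 4 of the 8 rose and *CEBPB* fell, with a median log2 fold change of 0.50. In DCIS.COM 0 rose and 4 fell, with a median of -0.38, where voom called 0 rises and 1 positive value had an unadjusted p below 0.05. Of all tested genes, 21.5% rose and 18.1% fell in MCF10A, and 16.4% and 16.7% in DCIS.COM. *TRIB3*, a pseudokinase that feeds back on ATF4, lies at chr20:343479-378203 (GRCh37, plus strand). It had 21.1 and 23.2 CPM in the pLOC-empty libraries and 49.0 and 50.01 CPM in those with pLOC-*MALINC1* in MCF10A. In DCIS.COM it had 57.8 and 56.1 CPM in the pLOC-empty libraries and 37.8 and 38.6 CPM in those with pLOC-*MALINC1*. Without *MALINC1* the DCIS.COM libraries were the higher ones, and with it the MCF10A libraries were. The log2 fold change was 1.16 (SE 0.053, adjusted p = 5.57e-09) in MCF10A, 2.24-fold, and -0.58 (SE 0.053, adjusted p = 3.01e-06) in DCIS.COM. The responses differed by -1.74 (SE 0.075, adjusted p = 2.77e-09). Between 522 and 1756 reads per library lay behind these values.

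*STC2*, which encodes the secreted glycoprotein stanniocalcin 2, showed a like course. It lies at chr5:172741726-172755450 (GRCh37, minus strand). MCF10A had 21.0 and 21.2 CPM in the pLOC-empty libraries and 41.4 and 42.8 CPM in those with pLOC-*MALINC1*. DCIS.COM had 39.5 and 38.3 CPM in the pLOC-empty libraries and 26.2 and 24.6 CPM in those with pLOC-*MALINC1*. No library of one vector reached the range of the other in either line. The log2 fold changes were 0.997 (SE 0.054, adjusted p = 2.26e-08), just under 2-fold, and -0.61 (SE 0.054, adjusted p = 1.83e-06), and they differed by -1.61 (SE 0.076, adjusted p = 5.89e-09).

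*VLDLR*, a lipoprotein receptor, was less abundant. It lies at chr9:2621182-2660056 (GRCh37, plus strand). It had 6.002 and 5.69 CPM in the pLOC-empty libraries and 8.57 and 9.48 CPM in those with pLOC-*MALINC1* in MCF10A. In DCIS.COM it had 8.51 and 8.71 CPM in the pLOC-empty libraries and 6.68 and 6.22 CPM in those with pLOC-*MALINC1*. The groups did not overlap in either line. The log2 fold change was 0.62 (SE 0.11, adjusted p = 0.000338) in MCF10A and -0.42 (SE 0.11, adjusted p = 0.0062) in DCIS.COM, with a difference of -1.04 (SE 0.15, adjusted p = 0.000103). Leaving out any of the 4 DCIS.COM libraries ended the call in that line, with log2 fold changes of -0.47 to -0.37. It was also lost with *RN7SL1* and *RN7SL2* left out, with voom on plain read totals and with DCIS.COM fitted alone. The MCF10A call was lost when MCF10A was fitted alone (adjusted p = 0.0123).

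*DDIT3*, which encodes the proapoptotic factor CHOP, was not called in either line. It lies at chr12:57910371-57915520 (GRCh37, minus strand), where exons of *MARS1* and *MBD6* overlap it on the opposite strand, and the strand setting of the counting is not given in the sources used here. Its level in MCF10A was 2.07 and 2.24 CPM in the pLOC-empty libraries and 2.41 and 2.38 CPM in those with pLOC-*MALINC1*. In DCIS.COM it was 4.22 and 4.99 CPM in the pLOC-empty libraries and 4.29 and 3.06 CPM in those with pLOC-*MALINC1*. The DCIS.COM groups overlapped, since the first pLOC-*MALINC1* library lay above the first pLOC-empty library. The log2 fold changes were 0.15 (SE 0.18, adjusted p = 0.506) and -0.34 (SE 0.18, adjusted p = 0.144). In MCF10A the value was 0.095 without pLOC-empty replicate 1. In DCIS.COM it was -0.22 without pLOC-empty replicate 2, -0.096 without pLOC-*MALINC1* replicate 2 and -0.59 without pLOC-*MALINC1* replicate 1 (adjusted p = 0.0373). Only 49 to 145 reads per library lay behind these values. *CHAC1*, a glutathione-degrading enzyme with 15 to 41 reads per library, had the widest errors of the group, with log2 fold changes of 0.42 (SE 0.26, adjusted p = 0.205) and 0.08 (SE 0.26, adjusted p = 0.833).

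The C/EBP factors with which ATF4 pairs moved apart. *CEBPG*, whose promoter is the last of those shown, rose in MCF10A from 34.5 ± 1.43 to 51.4 ± 2.87 CPM, which is a log2 fold change of 0.57 (SE 0.055, adjusted p = 2.94e-06), and had 0.12 (adjusted p = 0.0918) in DCIS.COM. *CEBPB* fell in both lines, from 53.9 ± 1.52 to 45.0 ± 2.13 CPM in MCF10A (-0.26, adjusted p = 0.000622) and from 68.8 ± 0.299 to 46.9 ± 1.77 CPM in DCIS.COM (-0.56, adjusted p = 1.60e-06). The MCF10A call of *CEBPB* was lost without pLOC-empty replicate 2 (-0.21, adjusted p = 0.0101), with limma without a trend and with this line fitted alone. *PPP1R15A*, the stress-induced subunit of the eIF2 alpha phosphatase, had the smallest change among the effectors in MCF10A, with -0.14 (adjusted p = 0.267), and -0.18 (adjusted p = 0.175) in DCIS.COM.

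**Figure D2:**
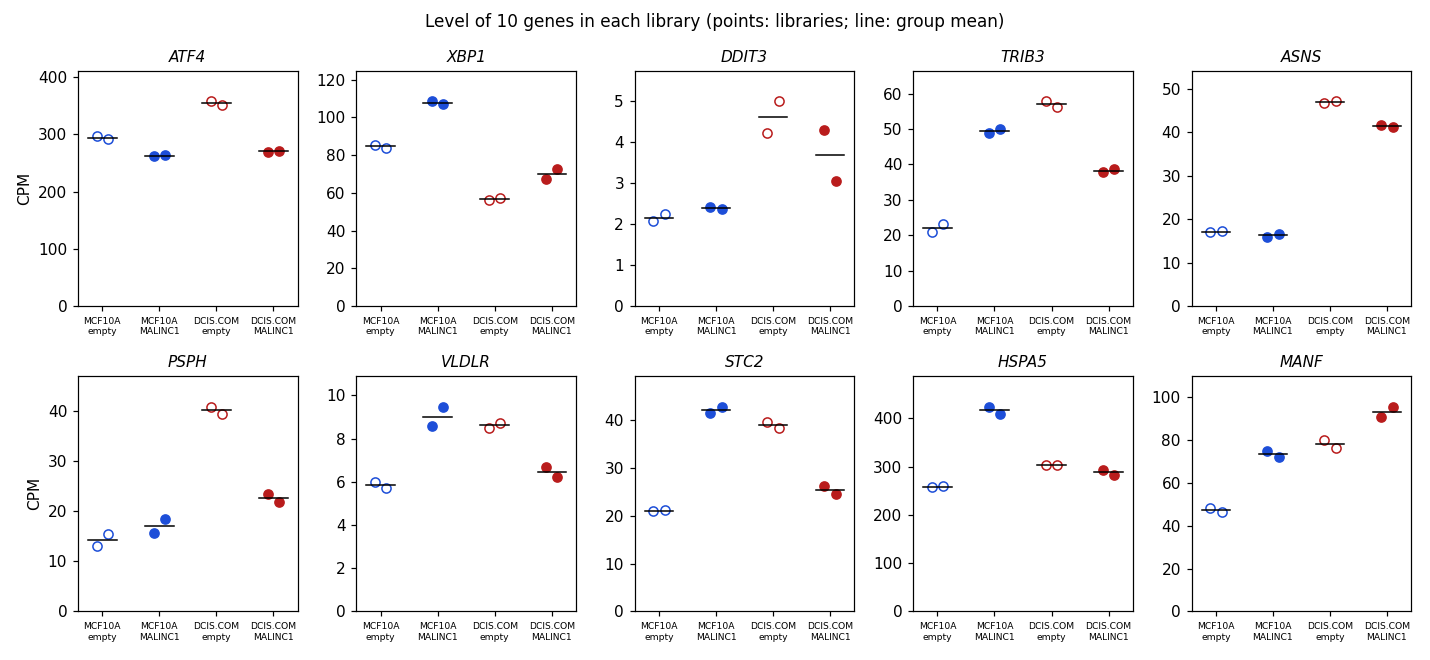
Level in CPM of the 10 genes described library by library, with open symbols for pLOC-empty, filled symbols for pLOC-*MALINC1* and a line at each group mean (n = 2 libraries). *TRIB3*, *STC2* and *VLDLR* are higher with pLOC-*MALINC1* in MCF10A but lower with it in DCIS.COM, *XBP1* and *MANF* go up in both lines, and the *DDIT3* values of DCIS.COM, from 3.06 to 4.99 CPM, overlap.

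Of the 18 chaperones, folding enzymes and ERAD genes, 9 rose and 2 fell in MCF10A, with a median log2 fold change of 0.27. In DCIS.COM 3 rose and 0 fell, with a median of 0.05, where 3 negative values had an unadjusted p below 0.05 and voom called 0 falls and 5 rises. The rises in DCIS.COM, 16.7% of the group, were near the 16.4% of all tested genes, of which 16.7% fell, and the counts in MCF10A stand beside 21.5% and 18.1% of all tested genes. *HSPA5*, which encodes BiP, the main chaperone of the ER lumen and the usual marker of the unfolded protein response, lies at chr9:127997132-128003661 (GRCh37, minus strand). It had 257 and 259 CPM in the pLOC-empty libraries and 424 and 408 CPM in those with pLOC-*MALINC1* in MCF10A. In DCIS.COM it had 304 and 302 CPM in the pLOC-empty libraries and 293 and 283 CPM in those with pLOC-*MALINC1*. The MCF10A pLOC-*MALINC1* libraries stood above all other libraries, while the DCIS.COM groups lay next to each other without overlap. The log2 fold change was 0.69 (SE 0.032, adjusted p = 6.66e-09) in MCF10A, 1.61-fold, and -0.07 (SE 0.032, adjusted p = 0.0788) in DCIS.COM. Quantile normalization brought the DCIS.COM value past the threshold, at -0.14 (adjusted p = 0.00448). The responses differed by -0.76 (SE 0.046, adjusted p = 5.10e-08).

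*MANF*, a small ER protein that is secreted under stress, rose in both lines. It lies at chr3:51422722-51426828 (GRCh37, plus strand). MCF10A had 48.4 and 46.5 CPM in the pLOC-empty libraries and 75.2 and 72.3 CPM in those with pLOC-*MALINC1*. DCIS.COM had 80.0 and 76.5 CPM in the pLOC-empty libraries and 90.9 and 95.6 CPM in those with pLOC-*MALINC1*. All 4 pLOC-*MALINC1* libraries exceeded the pLOC-empty libraries of their line. The log2 fold changes were 0.64 (SE 0.044, adjusted p = 1.90e-07) and 0.25 (SE 0.044, adjusted p = 0.000504), and the rise was larger in MCF10A, with a difference of -0.38 (SE 0.062, adjusted p = 0.000294). In DCIS.COM the call was lost with limma without a trend (adjusted p = 0.0125) and with this line fitted alone (adjusted p = 0.0111).

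The co-chaperones of BiP also rose in MCF10A. *DNAJB9* had a log2 fold change of 0.58 (adjusted p = 0.000262), *DNAJB11* of 0.56 (adjusted p = 4.37e-07) and *DNAJC3* of 0.40 (adjusted p = 9.85e-07). Their values in DCIS.COM were 0.07 (adjusted p = 0.588), 0.14 (adjusted p = 0.0198) and -0.05 (adjusted p = 0.202), none of which passed. The call of *DNAJB9* was lost when MCF10A was fitted alone (adjusted p = 0.015). *HYOU1*, the large ER chaperone whose promoter is the fourth shown, rose in both lines with 0.27 (adjusted p = 1.40e-05) and 0.23 (adjusted p = 7.75e-05). *SDF2L1*, a further partner of BiP, *EDEM1*, a lectin of ERAD, and *CANX*, the membrane-bound lectin chaperone, rose in MCF10A with 0.50, 0.37 and 0.27, and were not called in DCIS.COM.

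*CALR*, the soluble lectin chaperone of the ER, went the other way in MCF10A. Its level fell from 736 ± 0.517 to 605 ± 2.96 CPM, which is a log2 fold change of -0.28 (SE 0.033, adjusted p = 1.93e-05), and in DCIS.COM the value was -0.01 (SE 0.033, adjusted p = 0.747). The promoter shown holds the ER stress response element on the opposite strand at position -225 from the start, and that of *HSPA5* holds it at position -66. *SEL1L*, the scaffold of the ERAD ligase, fell in MCF10A with -0.25 (adjusted p = 0.000571), a call lost without a trend (adjusted p = 0.0137), and had -0.07 (adjusted p = 0.237) in DCIS.COM. The protein disulfide isomerases showed the smallest changes, with *PDIA3* at -0.0032 and *PDIA6* at -0.01 in MCF10A (adjusted p = 0.949 and 0.806), and *PDIA3* has 2 annotated pseudogenes, with which reads may be shared. *PDIA4* and *CALR* had the smallest changes in DCIS.COM, 0.01 (adjusted p = 0.896) and -0.01 (adjusted p = 0.747). *HSP90B1*, the ER form of HSP90, rose in DCIS.COM with 0.13 (adjusted p = 0.00737). This call was lost without any of 5 libraries in turn, which were both MCF10A pLOC-empty libraries, both DCIS.COM pLOC-empty libraries and DCIS.COM pLOC-*MALINC1* replicate 2. It was lost as well without a trend and with DCIS.COM fitted alone. *SYVN1*, the ligase itself, had 0.35 (adjusted p = 0.0169) and 0.35 (adjusted p = 0.0184). *HERPUD1* and *CRELD2*, whose promoters hold elements named above, were not called in either line. *HERPUD1* had 0.13 (adjusted p = 0.0789) in MCF10A and 0.05 (adjusted p = 0.502) in DCIS.COM. For *CRELD2* the values were 0.05 (adjusted p = 0.559) and 0.05 (adjusted p = 0.57).

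The amino acid arm and the chaperone arm were then set side by side. In MCF10A their median log2 fold changes were 0.24 and 0.27, a difference of -0.033. Its sign was not stable. It was 0.013 without pLOC-empty replicate 2, 0.057 without pLOC-*MALINC1* replicate 1 and -0.10 without pLOC-*MALINC1* replicate 2 of MCF10A. In DCIS.COM the medians were -0.19 and 0.05, a difference of -0.24, which lay between -0.25 and -0.21 when single libraries were left out. On the means over the genes the corresponding differences were 0.011 in MCF10A, of opposite sign to that of the medians, and -0.21 in DCIS.COM. The SD of this difference of means between replicate libraries, pooled over the groups, was 0.035. These libraries may be technical replicates and no like score was made over all genes, so that this SD does not test the arms. In DCIS.COM 3 of the 8 enzymes had positive values, and *PSPH*, at -0.82, had the most negative. The medians of the other effectors, 0.50 and -0.38, were the most distant between the lines, and those of the sensors and factors were 0.19 and -0.0041. All tested genes had medians of 0.0 and 0.01. No test was made over the members of an arm, since they had been chosen with results known.

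Library by library, the mean log2 CPM of the 8 amino acid enzymes, relative to its mean over the 8 libraries, was -0.72 and -0.71 with pLOC-empty and -0.52 and -0.43 with pLOC-*MALINC1* in MCF10A. In DCIS.COM it was 0.67 and 0.67 with pLOC-empty and 0.53 and 0.52 with pLOC-*MALINC1*. The enzymes thus lay far lower in MCF10A than in DCIS.COM, and the distance between the lines was smaller with pLOC-*MALINC1*. The corresponding means of the chaperone arm were -0.26 and -0.26, then -0.033 and -0.033 in MCF10A, and 0.11 and 0.12, then 0.16 and 0.20 in DCIS.COM. This arm was higher with pLOC-*MALINC1* in every library of both lines, by less in DCIS.COM.

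**Figure D3:**
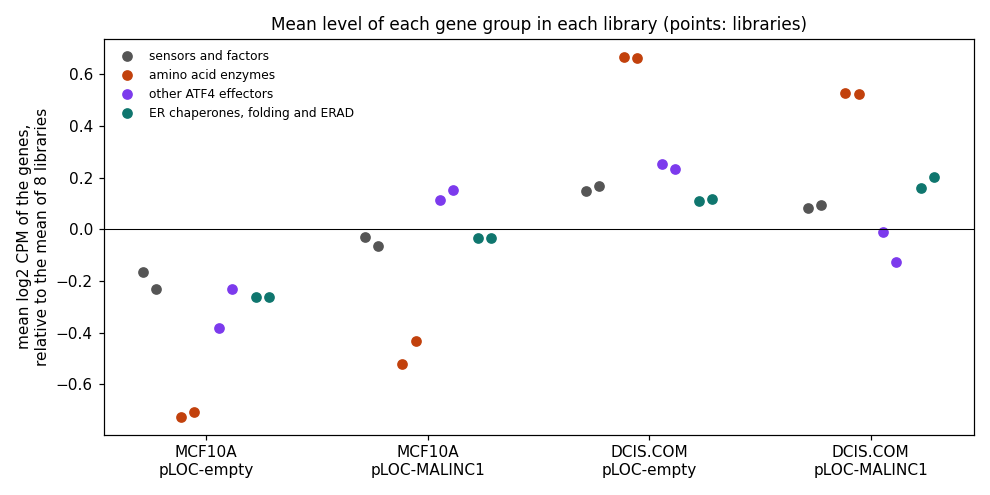
Mean log2 CPM of the genes of each group in each of the 8 libraries, relative to the mean over the libraries, with 1 point for each library. The amino acid enzymes lie at -0.72 to -0.43 in MCF10A and at 0.52 to 0.67 in DCIS.COM, and the chaperone arm stays between -0.26 and 0.20.

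The lines differed more than the vectors. With pLOC-empty, 30 of the 40 genes were higher and 5 lower in DCIS.COM than in MCF10A, beside 37.9% and 36.0% of all tested genes and 73.9% for both directions. The pLOC-empty libraries of this comparison are also those of the vector comparisons, so that the results are not independent. For 12 genes the level was over 2-fold higher in DCIS.COM, against 28.6% of all tested genes in either direction, and 39 of the 40 genes did not overlap between the lines, beside 90.1% of all tested genes. All 8 amino acid enzymes were higher in DCIS.COM, 7 of them over 2-fold, with a median log2 difference of 1.44, against 0.53 for the other effectors, 0.38 for the chaperone arm, 0.32 for the sensors and factors and 0.03 for all tested genes.

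*SHMT2* had the largest difference, from 96.2 ± 0.0473 CPM in MCF10A to 348 ± 2.61 CPM in DCIS.COM, a log2 fold change of 1.85 (SE 0.04, adjusted p = 4.34e-13). *PHGDH* followed with 1.58 (SE 0.058, adjusted p = 5.21e-11) and *PSPH* with 1.499 (SE 0.092, adjusted p = 8.16e-09). *ASNS*, which the vector comparisons did not call, was 2.73-fold higher in DCIS.COM, a log2 fold change of 1.45 (SE 0.053, adjusted p = 5.08e-11). Among the sensors, *EIF2AK3* and *EIF2AK4* were higher in DCIS.COM by 1.002 and 0.92, *ATF4* by 0.27, and *XBP1* was lower with -0.58 (adjusted p = 1.32e-09, 3.23e-11, 2.61e-06 and 3.97e-08). *TRIB3* and *DDIT3* were higher by 1.36 and 1.09, while *CEBPG* was lower with -0.29. In the chaperone arm 14 genes were higher and 3 lower. *DNAJB11* (1.10) and *PDIA6* (1.05) had the largest differences, *HSPA5* differed by 0.23, and *DNAJB9*, *HERPUD1* and *SEL1L* were lower in DCIS.COM, with -0.49, -0.34 and -0.31. The calls of *DNAJC3* (0.12) and *CRELD2* (0.26) were lost without any one of the 4 pLOC-empty libraries, and with limma without a trend.

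**Figure D4:**
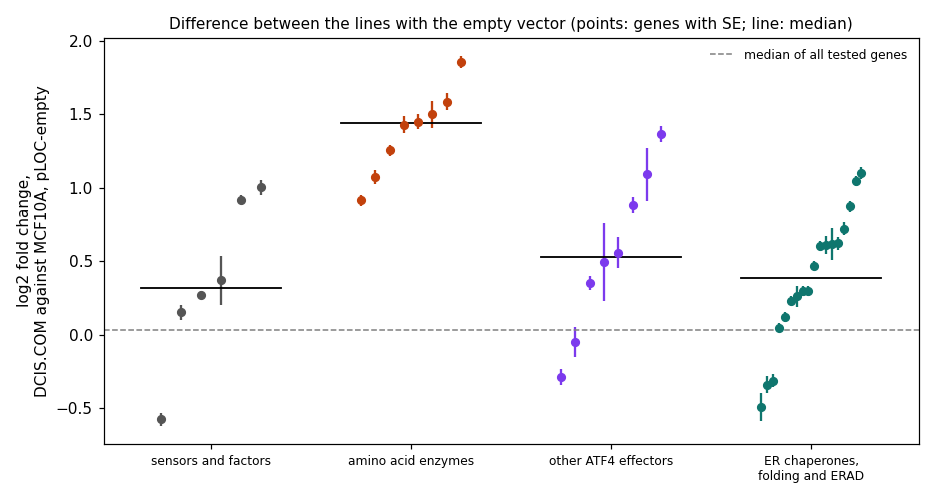
Log2 fold change of each gene between DCIS.COM and MCF10A with pLOC-empty, by group, with limma's standard error as bars, a line at the median of each group and a dashed line at the median of all tested genes (0.03). All 8 amino acid enzymes lie between 0.91 and 1.85, while *XBP1* is the lowest gene, at -0.58.

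Levels of different genes were compared per kilobase of the main annotated transcript. With pLOC-empty in MCF10A, *CALR* had 387 CPM per kb, *HSP90B1* 283 and *ATF4* 207. The sensors stood far below, with 14.7 CPM per kb for *EIF2AK4*, 6.88 for *ATF6*, 6.09 for *EIF2AK3* and 0.317 for *ERN1*. *SHMT2* had 44.6 CPM per kb in MCF10A and 161 in DCIS.COM, and *ASNS* had 7.19 and 19.6. *CHAC1* and *VLDLR*, with 0.508 and 0.635 CPM per kb in MCF10A, were among the lowest of the 40.

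Further genes of these pathways were taken from 5 lists that had been written with earlier results of these data known. Their counts are to be read beside the 21.5% of all tested genes that rose and 18.1% that fell in MCF10A, and 16.4% and 16.7% in DCIS.COM. Of 12 cytosolic tRNA synthetases, which ATF4 raises with the enzymes, 5 rose and 0 fell in MCF10A and 1 rose and 2 fell in DCIS.COM, with medians of 0.05 and -0.03. Voom called 0 falls in MCF10A as well, and 1 negative value had an unadjusted p below 0.05. The DCIS.COM shares, 8.33% and 16.7%, were at or below those of all tested genes. *SARS1*, *YARS1* and *TARS1* rose in MCF10A by 0.27, 0.25 and 0.22 on the log2 scale, and in DCIS.COM *CARS1* fell with -0.44, *TARS1* fell with -0.14 and *LARS1* rose with 0.19. Of 9 amino acid transporters, 8 were in the table. In MCF10A 2 rose and 1 fell, with a median of 0.11, and in DCIS.COM 2 rose and 0 fell, with a median of 0.10, where voom called 0 falls and 2 negative values had an unadjusted p below 0.05. The MCF10A shares of 2 and 1 in 8 were near those of all tested genes. The glutamine carrier *SLC1A5* rose in both lines (0.61 and 0.19), as did the arginine carrier *SLC7A1* (0.18 and 0.25), while *SLC1A4* fell in MCF10A (-0.67).

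Of 16 other genes of the integrated stress response, 14 were in the table. In MCF10A 4 rose and 5 fell, with a median of -0.04, and in DCIS.COM 2 rose and 8 fell, with a median of -0.35. The falls were 35.7% of the list in MCF10A and 57.1% in DCIS.COM, beside 18.1% and 16.7% of all tested genes. *GDF15*, a stress-induced cytokine, rose from 3.79 ± 0.571 to 7.13 ± 0.738 CPM in MCF10A (0.92, adjusted p = 3.82e-05) and fell from 28.2 ± 1.065 to 12.3 ± 0.682 CPM in DCIS.COM (-1.20, adjusted p = 4.84e-06). *CBS*, the first enzyme of transsulfuration, rose from 1.26 ± 0.119 to 3.03 ± 0.117 CPM in MCF10A (1.26, adjusted p = 2.53e-05) and fell from 5.00 ± 0.0856 to 2.92 ± 0.178 CPM in DCIS.COM (-0.78, adjusted p = 0.0013). *KLHL24* fell in both lines, by log2 values of -1.30 and -1.09, and *NUPR1*, a stress-induced nuclear protein, fell in both as well, with -0.44 (adjusted p = 0.00887) and -0.91 (adjusted p = 6.94e-05).

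Of 9 genes of eIF2 and its kinases, exchange factor and phosphatase, 5 rose in MCF10A and 3 in DCIS.COM, with medians of 0.17 and 0.13, and 0 fell in either line. The rises were 55.6% and 33.3% of the list, beside 21.5% and 16.4% of all tested genes. Voom called 0 falls as well, and 1 negative value in MCF10A and 0 in DCIS.COM had an unadjusted p below 0.05. The exchange factor subunits *EIF2B3* and *EIF2B2* rose in MCF10A with 0.45 and 0.40, *EIF2S1*, which encodes eIF2 alpha, rose in both lines with 0.31 and 0.16, *PPP1R15B* rose in both with 0.16 and 0.20, and *EIF2B1* rose in DCIS.COM with 0.19. Of 44 further ER genes of folding, translocation and ERAD, 41 were in the table. In MCF10A 10 rose and 9 fell and in DCIS.COM 6 rose and 6 fell, with medians of 0.00547 and 0.02, close to the medians of all tested genes. The shares were 24.4% and 22.0% in MCF10A and in DCIS.COM 14.6% for each direction, near those of all tested genes as well. *KDELR3*, a retrieval receptor for ER proteins, fell in MCF10A (-0.59, adjusted p = 0.000359) and rose in DCIS.COM (0.52, adjusted p = 0.00109). *WFS1* and *EDEM2* fell in MCF10A with -0.63 and -0.45, and the ER oxidase *ERO1A* and the translocon subunit *SEC61G* fell in DCIS.COM with -0.74 and -0.55.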

How the data were processed

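According to the sources, the authors sequenced 76 nt paired-end libraries, aligned them to hg19 with Rsubread, counted reads with featureCounts and normalized them with edgeR, and deposited log2 CPM for 13842 genes. Tool versions, strand setting and the handling of multiply aligned reads are not given in the sources used here. The deposited log2 values gave whole reads for 100% of values within 0.05 reads, after removal of a prior count that averaged 2 reads, and a gene without reads is listed at 0.0713 CPM. Across genes, the libraries of a group correlated with Pearson's r of 0.996 to 0.997, with a chi-square per degree of freedom of 3.30 to 20.6, highest for DCIS.COM pLOC-*MALINC1*.

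The members and gene lists were chosen with earlier results of these data known. The fit was made by limma (version 3.58.1, R 4.3.3; lmFit, eBayes with trend, means of the 4 groups over 8 libraries, 4 residual and 7.98 prior degrees of freedom) with Benjamini-Hochberg adjustment over all genes. The 4 groups share the estimate of spread of a gene, so that its standard error is the same in both lines. With each line fitted alone, 12.6% of all tested genes rose and 9.75% fell in MCF10A. In DCIS.COM fitted alone the shares were 8.65% and 9.83%. A filter of 0.5 CPM in at least 2 libraries kept all genes. Library values are given for *ATF4*, *XBP1*, *HSPA5*, *DDIT3*, *ASNS* and members called with a change over 1.5-fold in either line, the 2 largest and 2 smallest changes are named for each group, and the 3 largest called changes for each further list and line. Other members, and the alternatives of *EIF2AK4*, *PSAT1* and *MTHFD2*, were added after their values were seen. Alternatives changed the filter, the pseudocount, the model, the fold threshold, the scaling and the set of libraries. Voom used library sizes scaled as by the authors, a choice made after the data had been seen, as was voom on plain totals. The steps were tested on simulated data with known log2 changes of 0.7 and 1.5 in size. At 0.7, 80% of these were called in MCF10A and 76% in DCIS.COM, and at 1.5 100% in both. The simulation gave all groups the same spread between replicates, unlike these libraries, and changed only genes with many reads. Its shares therefore do not describe the lines separately, or genes with few reads. Smaller changes, such as many of those reported here, were not simulated. Gene positions and exon overlaps are those of GENCODE on GRCh37. Exons of another gene on the opposite strand overlap 18 members, and those on the same strand 7. Named pseudogenes exist for 8 members, which are *ATF4*, *XBP1*, *ASNS*, *PSAT1*, *PSPH*, *MTHFD2*, *HSPA5* and *PDIA3*. Promoters are those of RefSeq on GRCh38.p14, with none used here for *PSPH*, *SHMT2*, *PYCR1* and *PDIA3*. Figures were drawn with Python 3.11.15, pandas 2.3.3, numpy 2.4.6 and matplotlib 3.10.9.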

Additional observations from a re-analysis of the deposited data

Results flagged for a closer look

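The response to pLOC-*MALINC1* differed between the cell lines for 21 of the 40 genes (limma, contrast of the contrasts, adjusted p below 0.01), beside 35.9% of all tested genes. Values are the log2 fold change in DCIS.COM minus that in MCF10A. Among the sensors and factors they were -0.23 for *ATF4* and -0.78 for *EIF2AK4*. For the amino acid enzymes they were -0.73 for *PSAT1*, -1.08 for *PSPH*, -0.50 for *SHMT2*, -0.74 for *MTHFD2*, -0.20 for *ALDH18A1* and 0.37 for *PYCR1*. The other effectors of *ATF4* had -1.74 for *TRIB3*, -1.61 for *STC2*, -1.04 for *VLDLR*, -0.45 for *CEBPG* and -0.29 for *CEBPB*. In the chaperone arm the values were -0.76 for *HSPA5*, -0.51 for *DNAJB9*, -0.50 for *EDEM1*, -0.45 for *DNAJC3*, -0.42 for *DNAJB11*, -0.38 for *MANF*, 0.27 for *CALR* and 0.22 for *HSP90B1*. The differences of *ALDH18A1*, *PYCR1*, *CEBPB*, *HSP90B1* and *DNAJB9* lost their call when single libraries were left out, and those of *ATF4* and *CALR* under other settings, as given under the processing.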

How the results depend on the processing

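The number of called genes among the 40 was 24 in MCF10A, 16 in DCIS.COM, 35 between the lines and 21 for the difference of the responses. Of all tested genes, 39.6%, 33.2%, 73.9% and 35.9% were called. A threshold of over 2-fold left 1, 0, 12 and 4 of the 40, beside 5.50%, 4.53%, 28.6% and 9.20% of all tested genes. With any single library left out, fewer of all tested genes were called in each comparison than in the reported fit. Leaving out each library in turn gave 21 to 24, 13 to 16, 33 to 35 and 17 to 21 calls, with 21 of 24, 12 of 16, 33 of 35 and 16 of 21 genes keeping their call throughout. Over every alternative fit, 17, 10, 33 and 14 kept it, and no called gene changed sign under any alternative run. Runs that changed only the filter, the trend or the block, or that left out libraries outside a comparison, keep its fold changes. In those runs the signs were fixed in advance. The difference between the amino acid and the chaperone arm was 0.0045 in MCF10A after quantile normalization. With each library left out it was -0.10 to 0.057 in MCF10A and -0.25 to -0.21 in DCIS.COM. In the difference of the responses, *ALDH18A1* lost its call without any of 7 libraries, that is all but DCIS.COM pLOC-*MALINC1* replicate 2 (adjusted p up to 0.0249). *DNAJB9* lost it without MCF10A pLOC-empty replicate 2, either MCF10A pLOC-*MALINC1* library, DCIS.COM pLOC-empty replicate 1 or either DCIS.COM pLOC-*MALINC1* library (up to 0.0393). *CEBPB* lost it without MCF10A pLOC-empty replicate 1, MCF10A pLOC-*MALINC1* replicate 2, either DCIS.COM pLOC-empty library or DCIS.COM pLOC-*MALINC1* replicate 1 (up to 0.0185). *HSP90B1* lost it without MCF10A pLOC-empty replicate 2, MCF10A pLOC-*MALINC1* replicate 1 or DCIS.COM pLOC-empty replicate 1 (up to 0.0133), and *PYCR1* without DCIS.COM pLOC-empty replicate 2 or pLOC-*MALINC1* replicate 1 (up to 0.0123). Without a trend the difference of the responses was also lost for *ATF4*, *ALDH18A1*, *PYCR1*, *CEBPB*, *HSP90B1*, *DNAJB9* and *CALR* (adjusted p = 0.0154 for the last). Plain read totals ended it for *ATF4*, *ALDH18A1*, *CEBPB* and *DNAJB9*, leaving out *RN7SL1* and *RN7SL2* for *ALDH18A1*, *CEBPB* and *DNAJB9*, and quantile normalization for *ALDH18A1* and *DNAJB9*. Against the reported fit, plain read totals shifted the median of all genes by 0.12 in DCIS.COM, 0.07 between the lines and 0.12 in the difference of the responses, and leaving out *RN7SL1* and *RN7SL2* by 0.10 between the lines. No pairing by replicate number was seen, as deviations of same-numbered libraries had correlations of -0.067 to 0.038 over the tested genes. These correlations cannot exclude a pairing that affects only some genes or groups. With the replicate block 24, 16, 35 and 21 genes were called and the arm differences were -0.033 and -0.24. Depth limits *DDIT3*, *CHAC1* and *ERN1*, and a group with 1 library left is assumed to vary like the others.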
